A study of Mus musculus with 16 samples.

Results

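The genes that carry glucose from the bloodstream to pyruvate, store it as glycogen and pass pyruvate into the mitochondrion were followed across the left ventricles of 16 mice. A list of 38 genes was matched by symbol to the 56953 genes of the deposited count table, and all 38 were found and passed the filter on low counts, among 18662 genes tested. The list holds 2 glucose transporters, 19 genes of glycolysis and its control by fructose 2,6-bisphosphate, 4 genes of lactate handling, 8 of pyruvate entry and oxidation, and 5 of glycogen metabolism. The mice were Bl6J, male and female, and either wild type (WT) or carriers of the homozygous P635L mutation of RBM20, a splicing factor of heart and skeletal muscle. At 4 weeks of age 1e12 viral genomes of an AAV9 vector were injected into a tail vein, and the heart was taken 12 weeks later, at 16 weeks. The vector carried either the cDNA of Tnpo3, which imports proteins into the nucleus, or a control (Ctr), pCAG-iCre-T2A-eGFP, which drives Cre recombinase and green fluorescent protein from a promoter active in many cell types. With 4 mice each, the groups are WT Ctr and WT Tnpo3 among wild-type mice and P635L Ctr and P635L Tnpo3 among mutants, so every mouse carried a virus, both Ctr groups carried Cre, and no group without virus was analysed here. The promoter in front of the Tnpo3 cDNA is not given in the sources used here.

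Glucose enters heart muscle through GLUT1, which sits in the plasma membrane at all times, and GLUT4, which insulin and contraction bring to the surface, and hexokinase then traps it as glucose 6-phosphate. Glycolysis splits that sugar into pyruvate, which is either exchanged with lactate or carried into the mitochondrion and oxidised by the pyruvate dehydrogenase complex, whose activity is held down by pyruvate dehydrogenase kinases. The adult heart draws most of its energy from fatty acids, keeps a glycogen store, and expresses muscle forms of several glycolytic enzymes beside forms shared with other tissues.

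Levels are given as CPM, the counts of a gene per 1000000 counts of its library, scaled by the trimmed mean of M-values (TMM), and levels of different genes are compared only per kilobase of transcript (CPM per kb). Gene positions are those of the count table, and GRCm39 is the build that the submitters' processing notes name. Library totals ran from 28493249 to 85922669 counts, and the 38 genes took between 1.526% and 2.675% of a library. Tnpo3 rose with its virus in both genotypes, by 2.84 on the log2 scale in WT and by 3.38 in P635L. In 3 libraries, WT Ctr replicates 2 and 4 and WT Tnpo3 replicate 4, the single unnamed gene ENSMUSG00000119584 took 19.96% to 22.65% of counts, against 0.7% to 5.3% elsewhere. In 3 libraries, WT Ctr replicate 4 and WT Tnpo3 replicates 2 and 4, Xist was high and no read was counted on Y-linked genes, whereas all 8 P635L libraries had Y-linked counts, so the female pattern was seen only among WT mice. Counts of genes are therefore also given without each set of 3 libraries where this moves them. Cardiomyocyte markers set the profile of all 16 libraries, with 8 marker genes summing to at least 49197 CPM.

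Per kilobase, the most abundant genes of the list were the muscle enzymes of lower glycolysis together with aldolase A and the heart form of lactate dehydrogenase. Over all 16 libraries Aldoa, which cleaves fructose 1,6-bisphosphate, averaged 1288 CPM per kb, Ldhb 1209, the phosphoglycerate mutase gene Pgam2 1041, the enolase gene Eno3 1027 and the dehydrogenase gene Gapdh 774. The muscle phosphofructokinase gene Pfkm, at 337 CPM per kb, and the muscle glycogen phosphorylase gene Pygm, at 311, followed with triosephosphate isomerase (Tpi1, 368) and pyruvate kinase (Pkm, 275). Regulators and transporters were lower: GLUT4 (Slc2a4) averaged 104 CPM per kb, GLUT1 (Slc2a1) 4.5, hexokinase 2 (Hk2) 39.3, and the bifunctional enzyme gene Pfkfb2, which makes and breaks down fructose 2,6-bisphosphate, 9.45. Aldolase C (Aldoc), a brain form, was close to the limit of detection, with 165 counts over all 16 libraries together. Aldoa, Gapdh, Ldha, Pgk1, Pgam1, Eno1, Tpi1 and Pkm have processed copies elsewhere in the mouse genome, so their values are uncertain where reads could be split between copies.

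**Figure D1:**
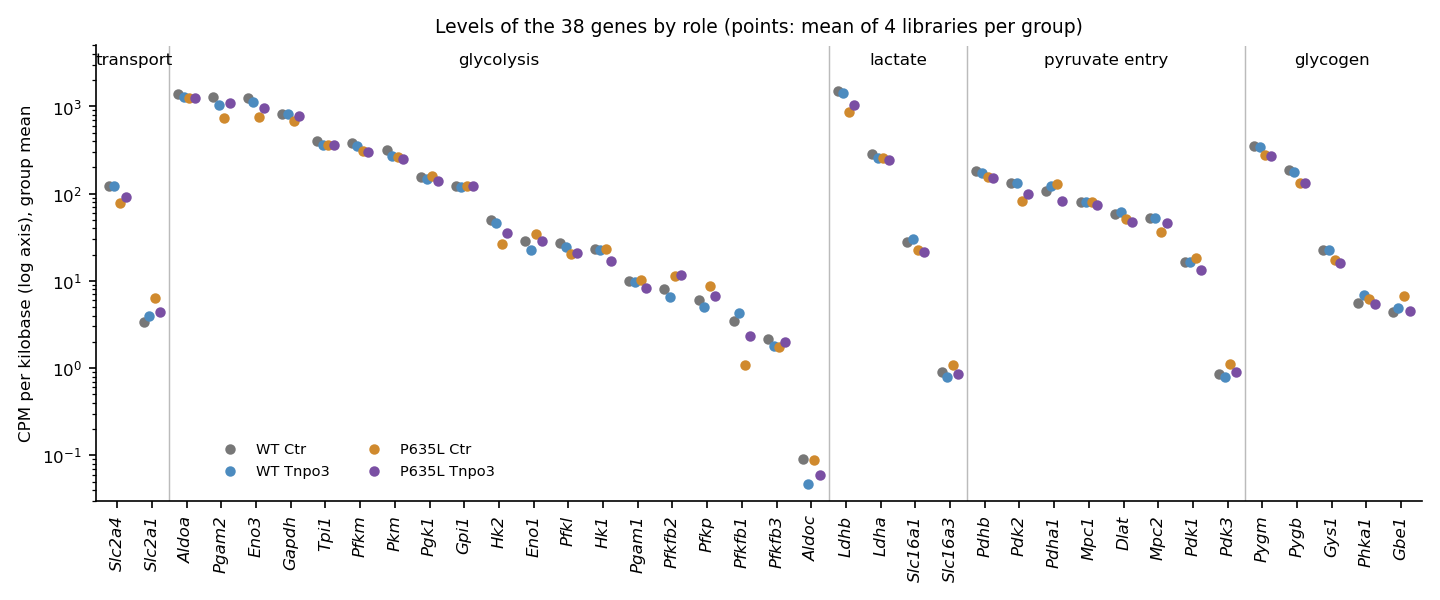
Each point is a group mean (4 mice) of 1 gene in CPM per kb of transcript on a log axis, with genes along the horizontal axis sorted by level within each role and colours for the 4 groups. Averaged over all libraries, Aldoa, Ldhb, Pgam2 and Eno3 are above 1000. Single group means of 3 of them are lower: Ldhb 868.9, Pgam2 746.9 and Eno3 763.5 in P635L Ctr, and Eno3 967.3 in P635L Tnpo3. Aldoc lies far below every other gene, and within most genes the 4 groups lie close together compared with the distance between genes.

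With control virus, P635L hearts differed from WT hearts at 12 of the 38 genes, 3 higher and 9 lower. GLUT1, the platelet phosphofructokinase Pfkp and Pfkfb2 rose in P635L Ctr, and GLUT4, hexokinase 2, Pfkfb1, Pgam2, Eno3, Ldhb, the kinase gene Pdk2, the carrier gene Mpc2 and the glycogen phosphorylase gene Pygb fell. Among all 18662 genes 14.2% passed the same test, 7.07% higher and 7.14% lower, and among the 4568 genes with an average log2 CPM of at least 5 the share was 16.9%, against 10 of the 30 genes of the list at that level. The median log2 fold change of the 38 genes was -0.19, with 25 negative and 13 positive, and that of all genes was -0.05. All p-values of genes come from edgeR's quasi-likelihood test with Benjamini-Hochberg adjustment over the 18662 genes, and a gene is called at an adjusted p below 0.05. Separate mice are the replicates, with 4 per group. Each difference was tested against the spread between mice within groups, estimated from all 4 groups together.

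Promoter sequences are shown for 7 of the 12 called genes, the 3 that rose and 4 of the 9 that fell, because several genes of the list moved together and the promoters are where their starts lie. The 4 were chosen with the motif matches known, Pgam2 as a promoter without any match, and each gene is shown by its first listed promoter. The RefSeq table of mouse promoters (GRCm38.p6) matched 37 of the 38 genes with 57 promoters, each holding 250 bases before and 50 after a start; Slc2a4 was not matched. The 250 bases before the start follow, 5′ to 3′ on the gene's strand, with capitals where 1 of 5 motifs matches on either strand. The motif ACGTG is the core bound by hypoxia-inducible factors, GCGTG is a second form of that core, and CACGTG is an E-box and holds the first motif. AAGGTCA is the site of estrogen-related receptors. The last motif, CTA and TAG with any 4 bases between them, is looser than the MEF2 site, where these 4 bases are A or T. Each match of it marked below holds a G or C there, so none is a full MEF2 site. The first 3 belong to the genes that rose (Slc2a1 at chr4:119108495-119108744, plus strand; Pfkp at chr13:6648772-6649021, minus strand; Pfkfb2 at chr1:130715822-130716071, minus strand), and the last 4 to genes that fell (Hk2 at chr6:82774455-82774704, minus strand; Ldhb at chr6:142507958-142508207, minus strand; Mpc2 at chr1:165461010-165461259, plus strand; Pgam2 at chr11:5803797-5804046, minus strand).
Slc2a1: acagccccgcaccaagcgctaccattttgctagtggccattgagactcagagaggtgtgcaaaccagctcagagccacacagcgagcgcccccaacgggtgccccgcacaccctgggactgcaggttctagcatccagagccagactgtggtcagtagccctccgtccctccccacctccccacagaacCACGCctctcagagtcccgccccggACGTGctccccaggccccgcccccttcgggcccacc
Pfkp: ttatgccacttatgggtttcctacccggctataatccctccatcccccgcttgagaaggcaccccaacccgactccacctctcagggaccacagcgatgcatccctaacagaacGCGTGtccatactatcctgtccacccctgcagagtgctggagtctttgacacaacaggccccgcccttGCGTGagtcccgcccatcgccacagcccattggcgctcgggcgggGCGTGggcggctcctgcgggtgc
Pfkfb2: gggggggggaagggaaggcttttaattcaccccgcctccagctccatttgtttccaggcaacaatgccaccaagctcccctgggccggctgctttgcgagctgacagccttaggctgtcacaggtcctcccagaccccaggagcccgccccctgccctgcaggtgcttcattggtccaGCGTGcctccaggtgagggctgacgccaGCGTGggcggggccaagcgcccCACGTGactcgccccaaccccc
Hk2: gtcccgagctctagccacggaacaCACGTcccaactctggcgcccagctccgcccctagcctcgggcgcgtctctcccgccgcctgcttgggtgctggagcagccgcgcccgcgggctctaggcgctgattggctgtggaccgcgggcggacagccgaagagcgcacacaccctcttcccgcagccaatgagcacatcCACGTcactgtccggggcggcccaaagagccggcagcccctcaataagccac
Ldhb: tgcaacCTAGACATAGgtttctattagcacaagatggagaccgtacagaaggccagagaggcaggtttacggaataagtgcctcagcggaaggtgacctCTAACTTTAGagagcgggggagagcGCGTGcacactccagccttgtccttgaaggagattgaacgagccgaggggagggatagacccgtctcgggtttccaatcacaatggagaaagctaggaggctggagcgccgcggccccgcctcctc
Mpc2: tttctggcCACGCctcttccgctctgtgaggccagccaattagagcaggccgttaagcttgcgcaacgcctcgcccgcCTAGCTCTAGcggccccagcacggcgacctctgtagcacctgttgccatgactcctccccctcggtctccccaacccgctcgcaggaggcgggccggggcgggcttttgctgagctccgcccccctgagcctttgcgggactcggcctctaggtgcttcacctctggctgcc
Pgam2: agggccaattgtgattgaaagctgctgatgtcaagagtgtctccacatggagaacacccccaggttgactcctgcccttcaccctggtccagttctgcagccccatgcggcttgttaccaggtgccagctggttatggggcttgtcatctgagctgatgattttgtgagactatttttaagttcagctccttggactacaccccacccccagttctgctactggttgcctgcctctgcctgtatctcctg

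In the full 300 bases, ACGTG matched 42.1% of the promoters of the list against 19.6% of all 32851 promoters, and GCGTG matched 54.4% against 32.4%. Of the 5 promoters of the genes that rose, 60.0% held ACGTG and 80.0% GCGTG, and of the 12 promoters of 8 genes that fell these shares were 25.0% and 41.7%. CACGTG matched 10.5% of the promoters of the list against 7.15% of all, and AAGGTCA 5.26% against 4.72%, at Eno1, Pfkfb1 and Tpi1. The loose MEF2-like motif matched Ldhb, Mpc2 and Phka1, which is 5.26% of the promoters of the list against 3.69% of all. Among the called genes, no motif matched in the promoter of Pgam2, 1 of 2 promoters of Pdk2 or 2 of 4 promoters of Pfkfb1. Of the genes not called, Gpi1, Dlat, Gys1 and Gbe1 had no match either. Several promoters belong to 1 gene and overlap, so they are not independent, and a match describes letters and not a bound site.

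The glucose transporters moved in opposite directions in P635L Ctr hearts. Slc2a1 (ENSMUSG00000028645, chr4:118965908-118995180, plus strand) stood at 13.5, 10.5, 14.1 and 8.78 CPM in WT Ctr and at 18.5, 21.3, 24.4 and 24.9 in P635L Ctr. Every P635L Ctr library was above every WT Ctr library (log2 fold change 0.92 ± 0.19 (SE), adjusted p = 0.00288). The values were 20.7, 12.1, 12.8 and 10.2 CPM in WT Tnpo3 and 14.5, 13.8, 16.8 and 15.7 in P635L Tnpo3, so the mutant libraries lay above the highest WT Ctr mouse except P635L Tnpo3 replicate 2, while WT Tnpo3 replicate 1 reached the P635L Ctr range. The gene Gm12868 overlaps Slc2a1 on the other strand.

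Slc2a4 (ENSMUSG00000018566, chr11:69833365-69839014, minus strand) stood at 403, 464, 433 and 401 CPM in WT Ctr and 241, 258, 314 and 289 in P635L Ctr, and the groups did not overlap (log2 fold change -0.63 ± 0.15 (SE), adjusted p = 0.00867). In WT Tnpo3 it ranged widely, at 525, 502, 396 and 296 CPM, and in P635L Tnpo3 it was at 344, 302, 334 and 279, below every WT Ctr library. As a share of the CPM per kb of both transporters, Slc2a1 made up 2.67% in WT Ctr and 7.42% in P635L Ctr.

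At the first step of glycolysis hexokinase 2, the insulin-responsive form, fell. Hk2 (ENSMUSG00000000628, chr6:82702006-82751435, minus strand) stood at 248, 379.5, 247 and 309 CPM in WT Ctr and 141, 152, 186 and 149 in P635L Ctr, with no overlap (log2 fold change -0.91 ± 0.14 (SE), adjusted p = 0.000303). The level was 308, 296, 223 and 268 CPM in WT Tnpo3 and 228, 206, 218 and 193 in P635L Tnpo3, where all 4 libraries lay between the other mutant group and WT Ctr. Hk1, the general form, was not called (log2 fold change -0.02 ± 0.20 (SE), adjusted p = 0.967), and its share of the CPM per kb of both hexokinases was 31.7% in WT Ctr and 46.5% in P635L Ctr.

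Of the genes that set the pace of glycolysis, the platelet phosphofructokinase rose, while the muscle form, which supplies most of that enzyme's transcripts, was not called. Pfkp (ENSMUSG00000021196, chr13:6629804-6698813, minus strand) stood at 105, 90, 71 and 54.1 CPM in WT Ctr and 116, 112, 122 and 122 in P635L Ctr (log2 fold change 0.56 ± 0.17 (SE), adjusted p = 0.0321). The 4 mutant values were close together and just above the highest of the widely spread WT Ctr values. In WT Tnpo3 it was at 68.6, 80.9, 63.5 and 56.2 CPM and in P635L Tnpo3 at 90.3, 84.7, 73.4 and 108. Its call was lost in 5 of 27 alternatives, with an adjusted p of up to 0.084, which were the fit without the 3 libraries rich in ENSMUSG00000119584 and those without WT Ctr replicate 3 or 4 or P635L Ctr replicate 3 or 4. Pitrm1 overlaps it on the other strand.

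Pfkm (ENSMUSG00000033065) stood at 1221, 1327, 1358 and 1243 CPM in WT Ctr, 1351, 1377, 1147 and 877 in WT Tnpo3, 906, 897, 1236 and 1086 in P635L Ctr and 1042, 923, 1085 and 946 in P635L Tnpo3 (log2 fold change -0.32 ± 0.14 (SE), adjusted p = 0.147 for P635L Ctr against WT Ctr). The liver form Pfkl just missed the threshold (log2 fold change -0.39 ± 0.13 (SE), adjusted p = 0.0522), with P635L Ctr libraries all below WT Ctr. Pfkm made up 92.1% of the phosphofructokinase CPM per kb in WT Ctr and 91.2% in P635L Ctr, and these shares overlapped.

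Of the 3 enzyme genes on the list that set fructose 2,6-bisphosphate, an activator of phosphofructokinase, 1 fell and 1 rose. Pfkfb1 (ENSMUSG00000025271, chrX:149371225-149426874, plus strand), the liver and muscle form, stood at 7.92, 7.43, 19.1 and 20.5 CPM in WT Ctr and 4.24, 3.09, 6.16 and 3.9 in P635L Ctr. WT Ctr replicates 3 and 4 were far above replicates 1 and 2, yet all 4 P635L Ctr libraries lay below them (log2 fold change -1.67 ± 0.35 (SE), adjusted p = 0.00413). The level was 13.4, 14.5, 23.5 and 17.3 CPM in WT Tnpo3 and 10.1, 10.1, 11.8 and 5.14 in P635L Tnpo3. Apex2 overlaps Pfkfb1 on the other strand.

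Pfkfb2 (ENSMUSG00000026409, chr1:130616919-130656990, minus strand), the heart form, stood at 59.2, 47.7, 77.3 and 49.2 CPM in WT Ctr and 81.6, 89, 98 and 66.4 in P635L Ctr (log2 fold change 0.52 ± 0.16 (SE), adjusted p = 0.0325). One WT Ctr library, replicate 3, lay above the lowest P635L Ctr library, so these groups overlapped. The level was 51.3, 45, 48.1 and 43.7 CPM in WT Tnpo3 and 85.3, 68.6, 84.6 and 102 in P635L Tnpo3. The call against WT Ctr was lost in 10 of 27 alternatives, with an adjusted p of up to 0.227, among them the fits without the 3 libraries rich in ENSMUSG00000119584 and without the 3 with high Xist, and those without WT Ctr replicate 1, 2 or 4 or P635L Ctr replicate 1, 2 or 3. Yod1 overlaps Pfkfb2 on the other strand and Gm29427 on its own strand. Pfkfb3, the inducible form, was not called (log2 fold change -0.32 ± 0.27 (SE), adjusted p = 0.474).

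From glucose-6-phosphate isomerase to phosphoglycerate kinase, no enzyme gene of the pathway itself other than Pfkp was called. Gpi1 (ENSMUSG00000036427) stood at 850.5, 841, 772 and 680.0 CPM in WT Ctr, 889, 838, 732 and 599 in WT Tnpo3, 722, 763, 856 and 812 in P635L Ctr and 719, 742, 848 and 872 in P635L Tnpo3. Aldoa (ENSMUSG00000030695) stood at 4576, 4485, 3825 and 3205 CPM, 4699, 4188, 3438 and 2743 CPM, 3370.1, 3389, 3871 and 3773 CPM and 3161, 3011, 3929 and 4303 CPM in the same order of groups. The 4 groups overlapped for both, with log2 fold changes in P635L Ctr of 0.00 ± 0.13 (SE) and -0.16 ± 0.17 (SE).

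Triosephosphate isomerase, the glyceraldehyde-3-phosphate dehydrogenase often taken as a reference gene, and phosphoglycerate kinase were likewise not called. Tpi1 (ENSMUSG00000023456) stood at 1211, 1301, 1013 and 869 CPM in WT Ctr, 1108, 1126, 911 and 790.5 in WT Tnpo3, 931, 967, 1028 and 1020.2 in P635L Ctr and 938, 890.4, 982 and 1136 in P635L Tnpo3. For Gapdh (ENSMUSG00000057666) the values were 3844, 3674, 3504 and 2611 CPM, 4427, 3619, 3193 and 2429 CPM, 2543, 2756, 2923 and 2995 CPM and 2687, 2672, 3430.3 and 3891 CPM in that order. Pgk1 (ENSMUSG00000062070) was at 394, 381, 357 and 261 CPM, 382, 415, 291 and 234 CPM, 308, 355, 369.5 and 405 CPM and 289.6, 298, 309 and 361 CPM. Log2 fold changes in P635L Ctr were -0.15 ± 0.14, -0.28 ± 0.18 and 0.05 ± 0.17 (SE) for the 3 genes, and the adjusted p-values were 0.506, 0.311 and 0.891.

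In lower glycolysis the muscle enzyme genes Pgam2 and Eno3 fell. Pgam2 (ENSMUSG00000020475, chr11:5751640-5753733, minus strand), which turns 3-phosphoglycerate into 2-phosphoglycerate, stood at 1226, 1216, 1082 and 749.8 CPM in WT Ctr and between 619 and 636 CPM in the 4 P635L Ctr mice (log2 fold change -0.77 ± 0.17 (SE), adjusted p = 0.00397). The P635L Ctr mice were close together and all below the lowest WT Ctr mouse, replicate 4. The level was 919, 947, 996 and 640.1 CPM in WT Tnpo3 and 824, 849, 858 and 1169 in P635L Tnpo3, where replicate 4 was well above the rest.

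Eno3 (ENSMUSG00000060600, chr11:70548028-70553339, plus strand), the muscle enolase, stood at 2466, 2191, 2266 and 1733 CPM in WT Ctr and 1181, 1159, 1593 and 1379 in P635L Ctr, with no overlap (log2 fold change -0.70 ± 0.15 (SE), adjusted p = 0.00421). The level was 2153, 2314, 1958 and 1456 CPM in WT Tnpo3 and 1774, 1493, 1791 and 1670.2 in P635L Tnpo3. The general forms of these enzymes, Pgam1 (log2 fold change 0.05 ± 0.24 (SE), adjusted p = 0.918) and Eno1 (log2 fold change 0.26 ± 0.16 (SE), adjusted p = 0.314), were not called. Pkm (ENSMUSG00000032294), the last step to pyruvate, stood at 1642, 1851, 1501 and 1337 CPM in WT Ctr, 1350.4, 1619, 1361 and 1084 in WT Tnpo3, 1219, 1291, 1436 and 1365 in P635L Ctr and 1220.2, 1194, 1239 and 1322 in P635L Tnpo3 (log2 fold change -0.25 ± 0.13 (SE), adjusted p = 0.206).

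In lactate handling, the heart form of lactate dehydrogenase fell and the muscle form was not called. Ldhb (ENSMUSG00000030246, chr6:142435975-142453683, minus strand) stood at 2491, 2645, 2466 and 1866 CPM in WT Ctr and 1176, 1274, 1565 and 1441 in P635L Ctr, with no overlap (log2 fold change -0.79 ± 0.17 (SE), adjusted p = 0.00313). The level was 2542, 2726, 2240.5 and 1467 CPM in WT Tnpo3, where replicate 4 was lowest, and 1604, 1525, 1756 and 1598 in P635L Tnpo3. Ldha (log2 fold change -0.16 ± 0.13 (SE), adjusted p = 0.473) made up 16.0% of the CPM per kb of both forms in WT Ctr and 23.0% in P635L Ctr.

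The monocarboxylate transporters, which move lactate and pyruvate across the plasma membrane, were not called. Slc16a1 (ENSMUSG00000032902), encoding MCT1, stood at 124, 156, 107 and 107 CPM in WT Ctr, 178, 167, 90.5 and 95 in WT Tnpo3, 83.6, 108, 95.3 and 108 in P635L Ctr and 103, 101, 92.1 and 83.4 in P635L Tnpo3 (log2 fold change -0.32 ± 0.20 (SE), adjusted p = 0.297). Slc16a3, encoding the lactate exporter MCT4, had log2 fold change 0.25 ± 0.26 (SE), adjusted p = 0.566.

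At the entry of pyruvate into mitochondria, 1 of the 3 kinases on the list and 1 of 2 carrier subunits fell. Pdk2 (ENSMUSG00000038967, chr11:94917084-94932180, minus strand), a kinase that switches pyruvate dehydrogenase off, stood at 386, 486, 383 and 415 CPM in WT Ctr and 211, 245, 302 and 290.3 in P635L Ctr, with no overlap (log2 fold change -0.67 ± 0.15 (SE), adjusted p = 0.004). The level was 521, 416, 372 and 348 CPM in WT Tnpo3 and 299.6, 317, 352 and 270.1 in P635L Tnpo3. Its share of the CPM per kb of the 3 kinases was 88.4% in WT Ctr and 81.1% in P635L Ctr, while Pdk1 (log2 fold change 0.14 ± 0.14 (SE), adjusted p = 0.522) and Pdk3 (log2 fold change 0.38 ± 0.26 (SE), adjusted p = 0.356) were not called.

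Mpc2 (ENSMUSG00000026568, chr1:165288206-165308783, plus strand) encodes a subunit of the mitochondrial pyruvate carrier and stood at 428, 467, 382 and 277 CPM in WT Ctr and 246, 249.2, 286 and 274 in P635L Ctr (log2 fold change -0.56 ± 0.16 (SE), adjusted p = 0.0273). Here the groups overlapped, because WT Ctr replicate 4 was at the level of the mutant mice, and the call was lost in 5 of 27 alternatives, those without WT Ctr replicate 1 or 2 or P635L Ctr replicate 1, 2 or 4, with an adjusted p of up to 0.111. The level was 476, 440.1, 366 and 272 CPM in WT Tnpo3 and 343, 319, 358 and 332 in P635L Tnpo3. Its partner Mpc1 (ENSMUSG00000023861) stood at 179.9, 184, 165 and 134 CPM in WT Ctr, 224, 183, 149 and 115 in WT Tnpo3, 149.5, 171, 172 and 169.9 in P635L Ctr and 156, 140.3, 167 and 160.0 in P635L Tnpo3 (log2 fold change -0.00 ± 0.16 (SE), adjusted p = 0.994), and its sign flipped with the scaling.

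The pyruvate dehydrogenase subunits were not called in P635L Ctr. Pdhb (ENSMUSG00000021748), of the E1 component, stood at 761, 773, 748 and 534 CPM in WT Ctr, 837, 817, 592 and 433 in WT Tnpo3, 510.2, 614, 662 and 632 in P635L Ctr and 556, 574, 572 and 611 in P635L Tnpo3. Dlat (ENSMUSG00000000168), the E2 component, stood at 284, 329, 284 and 253 CPM, 399.6, 372, 250.3 and 192 CPM, 207, 216, 285 and 281 CPM and 232, 222, 250.1 and 232 CPM in that order. The log2 fold changes in P635L Ctr were -0.22 ± 0.17 (SE) for Pdhb, -0.22 ± 0.18 (SE) for Dlat and 0.29 ± 0.20 (SE) for Pdha1, the other E1 subunit, with adjusted p-values of 0.436, 0.472 and 0.363.

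Among the glycogen genes, the brain form of glycogen phosphorylase fell. Pygb (ENSMUSG00000033059, chr2:150628655-150673678, plus strand) stood at 842, 859, 903 and 941 CPM in WT Ctr and 582, 590.2, 714 and 661 in P635L Ctr, with no overlap (log2 fold change -0.48 ± 0.12 (SE), adjusted p = 0.00922). The level was 947, 890.0, 840.4 and 708 CPM in WT Tnpo3 and 675, 656, 673 and 545 in P635L Tnpo3, so that both mutant groups were below every WT Ctr library. The muscle form Pygm (ENSMUSG00000032648), which held most of the phosphorylase CPM per kb, stood at 1088, 1234, 1097 and 1077 CPM in WT Ctr, 1414, 1283, 996 and 755 in WT Tnpo3, 694, 794, 1094 and 972 in P635L Ctr and 813, 819, 1009 and 879 in P635L Tnpo3 (log2 fold change -0.34 ± 0.17 (SE), adjusted p = 0.209).

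The other glycogen genes of the list, Gys1, Gbe1 and Phka1, were not called. Gys1 (ENSMUSG00000003865), glycogen synthase, stood at 98.8, 147, 81.6 and 101 CPM in WT Ctr, 144, 136, 79.3 and 76.5 in WT Tnpo3, 73.2, 73.7, 99 and 84.3 in P635L Ctr and 80.1, 75.7, 87.6 and 67.7 in P635L Tnpo3 (log2 fold change -0.38 ± 0.21 (SE), adjusted p = 0.247). Gbe1 (ENSMUSG00000022707), the branching enzyme, stood at 22.6, 27.6, 21.8 and 21.4 CPM, 34.9, 37.5, 19.2 and 12.9 CPM, 27.6, 33.7, 39.9 and 43.8 CPM and 23.5, 22.4, 23 and 26.8 CPM in that order (log2 fold change 0.63 ± 0.25 (SE), adjusted p = 0.102). Phka1 (ENSMUSG00000034055), a regulatory subunit of phosphorylase kinase, was at 32.4, 40.7, 34.2 and 32.3 CPM, 63.8, 53.8, 30.5 and 25.9 CPM, 40.2, 41.1, 40.9 and 34 CPM and 30.6, 32.4, 37.1 and 34.9 CPM (log2 fold change 0.16 ± 0.21 (SE), adjusted p = 0.65).

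**Figure D2:**
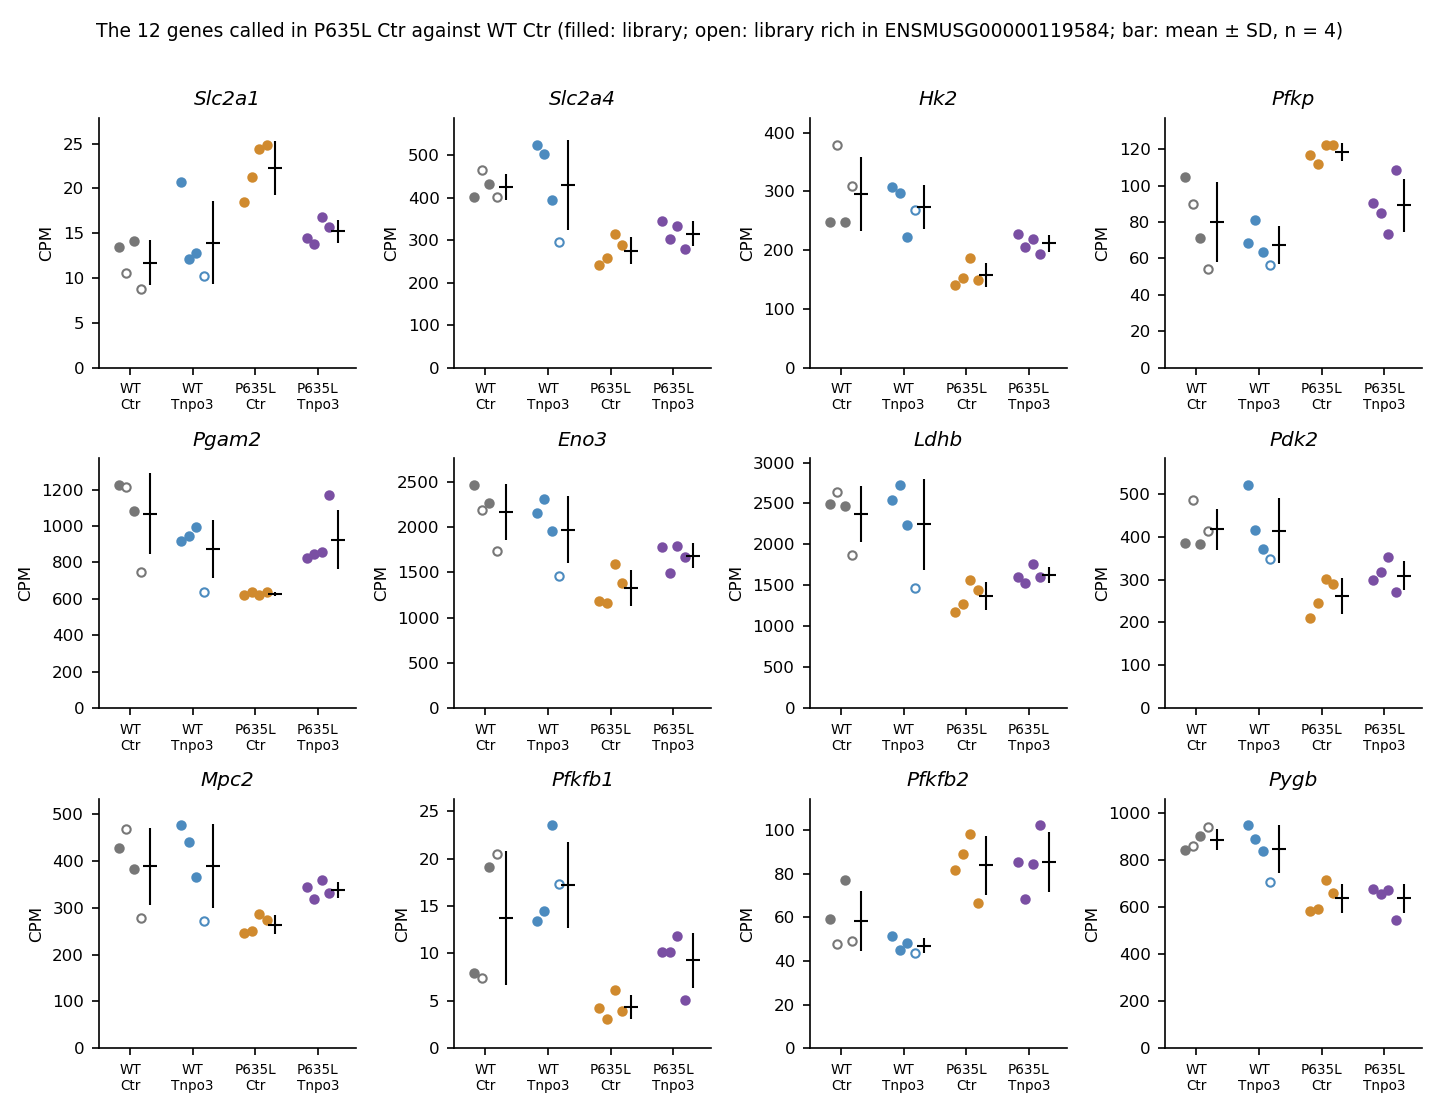
CPM of the 12 genes called in P635L Ctr against WT Ctr, 1 panel a gene, with a point for each of the 4 mice per group (open where the library is rich in ENSMUSG00000119584) and bars for mean ± SD. Slc2a1, Pfkp and Pfkfb2 were higher in P635L Ctr than in WT Ctr and the other 9 lower. For all but Pfkfb2 and Mpc2 the 2 groups did not overlap, but these 12 genes were picked by this same comparison. Over the whole list the 2 groups did not overlap for 11 of 38 genes, against 19.1% of all genes.

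Markers of several cell types moved in the same comparison. All 8 cardiomyocyte markers were lower in P635L Ctr, 3 of them called, with a median log2 fold change of -0.55 and a summed level of 49197 to 52164 CPM against 69929 to 80256 CPM in WT Ctr. Of 7 fibroblast markers 6 rose, with a summed level of 1488 to 2257 CPM against 915 to 1567 CPM in WT Ctr. All 5 macrophage markers were lower, with a median log2 fold change of -0.885, and 1 of them, Cd68, was called. Their summed level was 593, 274, 199 and 183 CPM in WT Ctr, where replicate 1 was highest, and 151 to 211 CPM in P635L Ctr. Of 6 skeletal muscle markers 4 were tested: Tnnt3, the fast troponin T, rose from a mean of 1.08 to 10.8 CPM, Ckm, the creatine kinase that heart muscle also makes, fell from 1311 to 640.0 CPM, and Acta1 and Mylpf were not called. No marker of these 4 lists was at or near 0 in every library, and their part in the results above was not tested. In bulk tissue, fewer cells of a type and less RNA per cell cannot be told apart.

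Sex could touch this comparison, since WT Ctr replicate 4 was the only library of these 8 with high Xist and without Y-linked counts. Without the 3 libraries with high Xist, 14 genes of the list were called, 3 higher and 11 lower, and without the 3 libraries rich in ENSMUSG00000119584 there were 10, of which 1 was higher. Calls over all genes also moved with the libraries kept, from 1814 to 3141 with 1 library left out. No change particular to the list is therefore read from these counts. The 9 genes Slc2a1, Slc2a4, Hk2, Pgam2, Eno3, Ldhb, Pdk2, Pfkfb1 and Pygb passed the threshold of 0.05 in all 27 alternatives that kept it. The authors' deposited table of the same comparison, made with DESeq2, has 14 genes of the list at an adjusted p below 0.05, the same 12 plus Pfkl and Gbe1, against 15.6% of the 21628 genes with an adjusted p there.

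The same genotype contrast was read in mice that all carried the Tnpo3 virus, which share no library with the control-virus mice. Between P635L Tnpo3 and WT Tnpo3 only Pfkfb2 was called, higher in P635L (log2 fold change 0.86 ± 0.16 (SE), adjusted p = 0.00479), against 3.72% of all genes, 1.72% higher and 2.0% lower. All 4 P635L Tnpo3 libraries were above all 4 WT Tnpo3 libraries for this gene. Of the 12 genes called with control virus, 11 had the same sign with Tnpo3 virus, Pgam2 being the exception, and 8 had the same sign with an unadjusted p below 0.05. Of all 2653 genes called with control virus, 2332 (87.9%) had the same sign and 1246 (47%) also an unadjusted p below 0.05.

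The count in this contrast moved with WT Tnpo3 replicate 4. Without the 3 libraries rich in ENSMUSG00000119584, of which WT Tnpo3 replicate 4 is 1, 11 genes of the list were called, Pfkfb2 higher and Slc2a4, Ldhb, Slc16a1, Pdk2, Pdha1, Dlat, Mpc2, Gys1, Pygm and Pygb lower, by 0.34 (Mpc2) to 0.72 (Pdha1) on the log2 scale. Leaving out WT Tnpo3 replicate 4 alone gave 6. That library had the lowest value of its group for Slc2a4, Ldhb, Pdk2, Mpc2 and Pygb, and also high Xist. Without the 3 libraries with high Xist, which leaves 2 WT Tnpo3 mice, 2 genes of the list were called, both lower, and Pfkfb2 had an adjusted p of 0.0594. Calls over all genes moved as well, with 694 in the fit to all libraries and 280 to 1220 with 1 library left out. Their totals without the rich or the high-Xist libraries are given in the last section. No change particular to the list is read from these counts.

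In P635L hearts, no gene of the list passed the threshold between Tnpo3 and control virus, where 3.88% of all genes did. At an unadjusted p below 0.05 there were 11 of 38, against 18.4% of all genes, and DESeq2 called 4, against 7.5%. The median log2 fold change of the list was -0.06, and that of all genes was 0.01. The smallest adjusted p-values were those of Pgam2 (log2 fold change 0.56 ± 0.17 (SE), adjusted p = 0.066), Pdha1 (log2 fold change -0.65 ± 0.20 (SE), adjusted p = 0.0753), Pdk1 (log2 fold change -0.44 ± 0.14 (SE), adjusted p = 0.0814) and Pfkfb1 (log2 fold change 1.10 ± 0.35 (SE), adjusted p = 0.0919).

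The levels in P635L Tnpo3 mice stood apart from those of P635L Ctr mice for 9 of the 38 genes, 3 higher and 6 lower, and 20.4% of all genes had groups that did not overlap in this contrast. All 4 P635L Tnpo3 libraries were above all 4 P635L Ctr libraries for Pgam2, Hk2 and Mpc2, and below them for Slc2a1, Pfkp and Gbe1, as the values given with each gene show. For Hk1, which was also lower, the values were 162, 192, 208 and 219.8 CPM in P635L Ctr and 152, 137, 154 and 132 in P635L Tnpo3, beside 178, 266, 148 and 199 in WT Ctr and 208, 278, 132 and 152 in WT Tnpo3. For Pdha1 the values were 409, 443, 541 and 538 CPM in P635L Ctr and 336, 307, 312 and 278 in P635L Tnpo3, beside 369, 455, 373 and 386 in WT Ctr and 577, 615, 329 and 284 in WT Tnpo3. For Pdk1 they were 126, 129.5, 161 and 146 CPM in P635L Ctr and 105, 95.3, 113 and 104 in P635L Tnpo3, beside 106, 131, 137 and 137 in WT Ctr and 162, 139, 109 and 107 in WT Tnpo3. Both Pdha1 and Pdk1 were lower in every P635L Tnpo3 library than in every P635L Ctr library.

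The count moved with the libraries that shared the estimate of the spread. A fit to the 2 mutant groups alone called 11 genes of the list: Hk2, Pgam2, Eno3, Mpc2 and Pfkfb1 higher with Tnpo3, and Slc2a1, Hk1, Pfkp, Pdk1, Pdha1 and Gbe1 lower. The same fit called 2846 genes in all against 724 in the fit to all 4 groups. Without the 3 libraries rich in ENSMUSG00000119584, all of them WT, 6 genes of the list were called, Hk2, Pgam2 and Mpc2 higher and Slc2a1, Pdk1 and Pdha1 lower. In the same contrast 4 of 7 fibroblast markers fell, with a summed level of 1052 to 1705 CPM in P635L Tnpo3, while 0 of 8 cardiomyocyte markers were called, at 51529 to 61453 CPM. All 5 macrophage markers had positive log2 fold changes, with a median of 0.757 and a summed level of 233 to 401 CPM in P635L Tnpo3, and 0 were called. Of the 4 skeletal muscle markers tested, 2 had positive and 2 negative log2 fold changes, and only Tnnt3 was called, falling to a mean of 3.45 CPM. Mean Acta1 went from 1226 CPM in P635L Ctr to 2286 CPM in P635L Tnpo3, and mean Ckm from 640.0 to 983 CPM. P635L Tnpo3 replicate 4 had Acta1 at 5209 CPM, and it was also the library with the highest Pgam2 of its group. The part of all these markers in the values above was not tested.

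Compared with WT Ctr, P635L Tnpo3 hearts had 1 called gene, Pygb (log2 fold change -0.48 ± 0.12 (SE), adjusted p = 0.0307), against 3.07% of all genes, 1.49% higher and 1.58% lower. The median log2 fold change was -0.27 for the list and -0.05 for all genes, and 31 of 38 were negative. Both contrasts against WT Ctr share the WT Ctr libraries. Pygb lost its call in 12 of 27 alternatives, with an adjusted p of up to 0.138, among them those without WT Ctr replicate 2, 3 or 4, P635L Ctr replicate 2 or any 1 P635L Tnpo3 library. The authors' deposited table has 9 genes of the list at an adjusted p below 0.05, with Pfkfb2 higher and Slc2a4, Pfkm, Pfkl, Ldhb, Pdk2, Pdha1, Pygm and Pygb lower than in WT Ctr, against 6.25% of the 19166 genes with an adjusted p there.

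In WT hearts, no gene of the list was called between Tnpo3 and control virus, and 0.00536% of all genes were, namely Tnpo3 itself. No gene of the list had an unadjusted p below 0.05, against 3.2% of all genes, and DESeq2 called 0, against 0.00813%. The median absolute log2 fold change of the list was 0.112. The test of whether the virus acted differently in the 2 genotypes called 0 of 38 genes, against 0.504% of all genes. There 7 of 38 had an unadjusted p below 0.05, against 12.4% of all genes, and DESeq2 called 1, Pgam2, against 2.12%.

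**Figure D3:**
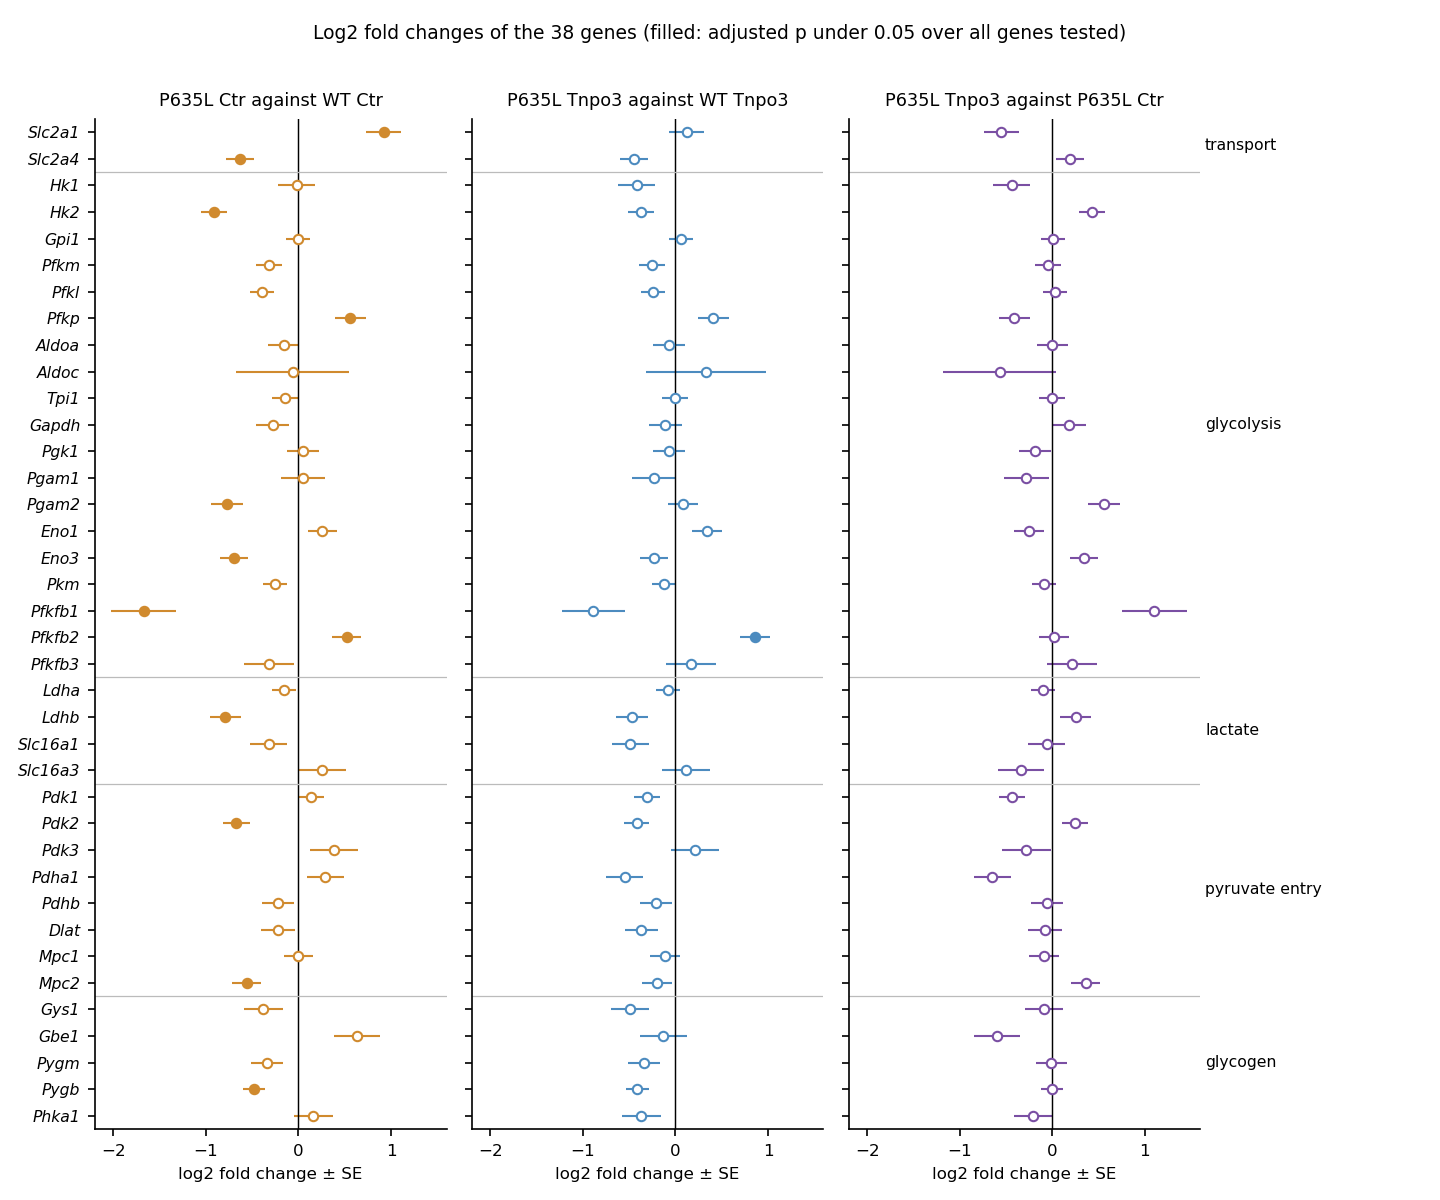
Log2 fold changes (points) with their SE (bars) for the 38 genes, grouped by role, in 3 contrasts drawn in separate panels. Filled points passed the adjusted p threshold of 0.05: 12 in P635L Ctr against WT Ctr, 1 in P635L Tnpo3 against WT Tnpo3 and none in P635L Tnpo3 against P635L Ctr.

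The balance between forms of the same enzyme was examined as shares of their summed CPM per kb. In P635L Ctr, 7 of 11 shares stood apart from WT Ctr with no overlap: the share of Slc2a1 among the transporters, Hk1 among hexokinases, Ldha among lactate dehydrogenases and Pfkfb2 among the fructose 2,6-bisphosphate enzymes were higher, and those of Pgam2, Eno3 and Pdk2 lower. Pfkfb2 made up 60.1% in WT Ctr and 80.1% in P635L Ctr. Hk1 shares per library were 33.5%, 32.9%, 29.5% and 31.1% in WT Ctr and 44.6%, 46.8%, 43.8% and 50.8% in P635L Ctr. In P635L Tnpo3 they were 31.9%, 31.8%, 33.1% and 32.3%, within the range of WT Ctr and away from P635L Ctr.

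With 4 mice against 4, the exact two-sided permutation test cannot go below p = 0.0286, the value each of these 7 shares had, and after adjustment over the 55 shares and contrasts tested it became 0.0982, so none passed. Between P635L Tnpo3 and P635L Ctr the shares of Slc2a1, Hk1, Pgam2, Ldha and Pdk2 did not overlap either, with the same exact p. Both contrasts use the P635L Ctr libraries. Slc2a1 was at 4.6% in P635L Tnpo3, Ldha at 18.9% and Pdk2 at 87.2%. The shares of Pfkm, Slc16a1 and Pygm overlapped between P635L Ctr and WT Ctr.

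**Figure D4:**
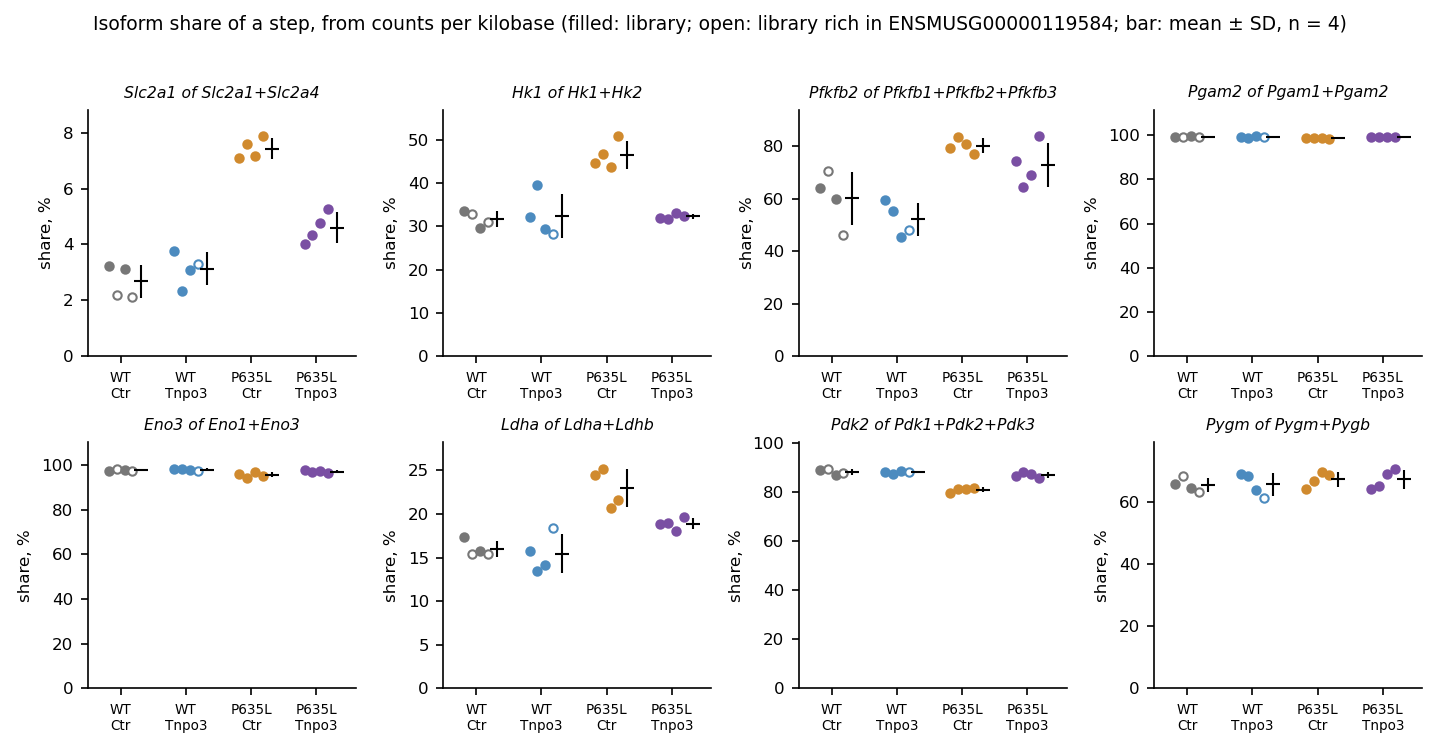
Share (%) of 1 form in the summed CPM per kb of the forms of its step that are on the list, for 8 of the 11 shares. Points are the 4 mice in each group (open where the library is rich in ENSMUSG00000119584) and bars are mean ± SD. The Hk1 points of P635L Ctr lie between 43.8% and 50.8%, above those of the other 3 groups.

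Splicing was read from the authors' deposited rMATS tables, which compare each other group with WT Ctr and give inclusion levels per library. An event was called at a false discovery rate (FDR) below 0.05 and an absolute inclusion difference of at least 0.1, with at least 10 junction reads on average. In P635L Ctr 1 of 140 events in 32 genes of the list was called, against 2.52% of all 34810 events, in P635L Tnpo3 2 of 156 against 2.12%, and in WT Tnpo3 1 of 131 against 0.941%. The tables do not say which library each value belongs to, so values are given in their listed order.

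The called event in P635L Ctr was a skipped exon of Aldoa, 153 bases at chr7:126397146-126397298 (GRCm39, minus strand). Its inclusion level was 0.135, 0.143, 0.227 and 0.144 in WT Ctr and 0.068, 0.059, 0.06 and 0.043 in P635L Ctr, with no overlap. The deposited difference was -0.105 with an FDR of 7.82e-14. In P635L Tnpo3 it was 0.089, 0.084, 0.132 and 0.073, a difference of -0.068 from WT Ctr with an FDR of 0.00489, and in WT Tnpo3 it was 0.175, 0.172, 0.177 and 0.15. Between the 2 mutant groups the levels did not overlap (exact permutation p = 0.0286, adjusted over the 4 events 0.114). Junction reads averaged 139.5 per WT Ctr library and 664 per P635L Ctr library, a small part of the 2557647 Aldoa counts over all 16 libraries. Unscaled inclusion reads were 29, 30, 58 and 40 in WT Ctr and 52, 100, 64 and 65 in P635L Ctr. Skipping reads were 93, 90, 99 and 119 in WT Ctr and 354, 799, 503 and 718 in P635L Ctr, so inclusion reads did not fall.

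The other called events lay in the fructose 2,6-bisphosphate enzymes and rested on few reads, fewer than the Aldoa event. A skipped exon of Pfkfb1, 120 bases at chrX:149418939-149419058 (plus strand), was included at 0.033, 0.167, 0.271 and 0.232 in WT Ctr and 0.41, 0.299, 0.35 and 0.4 in P635L Tnpo3 (FDR 0.00768). In P635L Ctr the levels were 0.318, 0.415, 0.375 and 0.194 (FDR 0.21). In WT Tnpo3 they were 0.15, 0.143, 0.306 and 0.42, which overlapped those of P635L Tnpo3, and the event was not called. The level of 0.033 in WT Ctr came from 3 inclusion and 44 skipping reads.

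In Pfkfb2 a longer exon end at an alternative 5′ splice site, chr1:130642193-130642312 (minus strand), had 0 of 148 reads in WT Ctr, which allows a share of up to 2.03% (3 counts, counting error only), and stood at 0.111, 0, 0.217 and 0.108 in P635L Tnpo3 (FDR 4.06e-06). In P635L Ctr it stood at 0.062, 0, 0.065 and 0.103 (FDR 0.00826), which is under the size asked of a call. In WT Tnpo3 it stood at 0.026, 0, 0.103 and 0.051 and was not called, so the longer end was also read in WT mice. A skipped exon of Pfkfb2, 69 bases at chr1:130624754-130624822, averaged 0.878 in WT Ctr and 0.699 in WT Tnpo3 (FDR 0.0119), and 0.806 and 0.802 in P635L Ctr and P635L Tnpo3. The mutually exclusive exons of Pkm that set the M1 and M2 forms of pyruvate kinase, chosen after their values were seen, averaged 0.919 in WT Ctr, 0.919 in P635L Ctr, 0.907 in P635L Tnpo3 and 0.918 in WT Tnpo3 with FDRs of 1, 0.249 and 1.

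**Figure D5:**
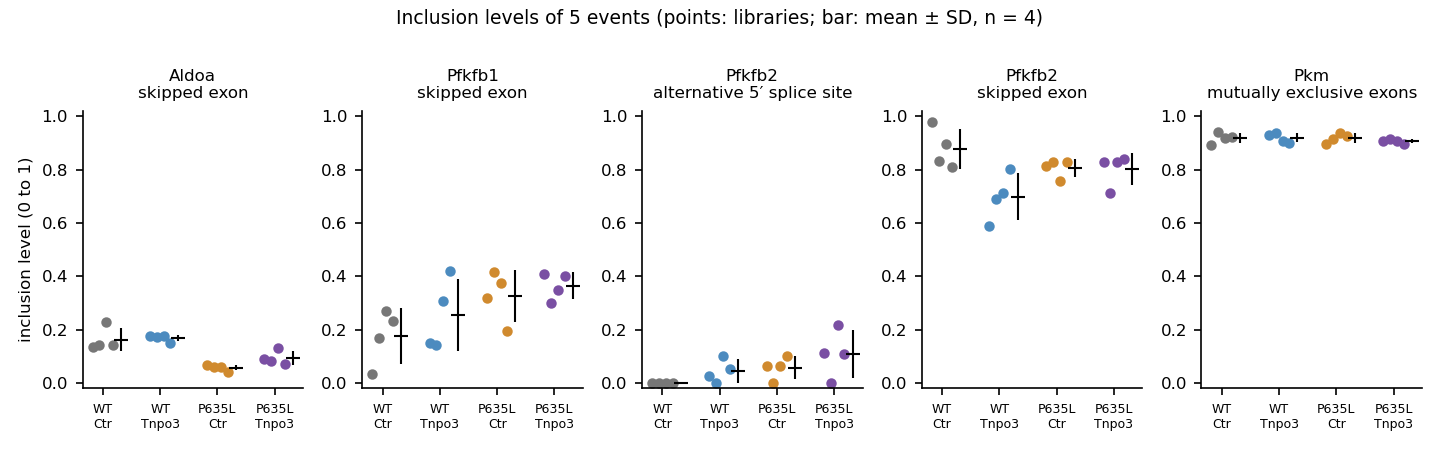
Inclusion level (0 to 1) of the 4 called events and of the Pkm exons, 1 panel an event, with a point for each library in its listed order and bars for mean ± SD. The Aldoa exon is lower in P635L Ctr (0.043 to 0.068) than in WT Ctr (0.135 to 0.227), with P635L Tnpo3 between them.

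Of 103 further genes of glucose metabolism outside the 38, 96 were tested. In P635L Ctr 5 of them rose and 18 fell, against 7.07% and 7.14% of all genes, with a median log2 fold change of -0.15. The lists of lactate and pyruvate genes held 7 of 13 lower and 0 higher, with a median of -0.58, and the shuttles that bring cytosolic reducing equivalents to the mitochondrion held 3 of 10 lower, Gpd1, Gpd2 and Slc25a13, and 0 higher. Among the former were Pcx, pyruvate carboxylase (log2 fold change -0.66 ± 0.11 (SE), adjusted p = 0.000419), the phosphatase gene Pdp2, which switches pyruvate dehydrogenase on (log2 fold change -1.21 ± 0.24 (SE), adjusted p = 0.00233), and Ldhd, D-lactate dehydrogenase (log2 fold change -0.74 ± 0.16 (SE), adjusted p = 0.00371). The Pdp2 call was lost without the 3 libraries rich in ENSMUSG00000119584 (adjusted p = 0.0715). In WT Ctr, Pdp2 stood at 32.2 and 28.5 CPM in the rich replicates 2 and 4 and at 17.9 and 18.5 CPM in replicates 1 and 3.

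Phkg1, the catalytic subunit of muscle phosphorylase kinase, which activates glycogen phosphorylase, was at 27, 20.8, 39.7 and 28.4 CPM in WT Ctr, 25.2, 22.5, 35.8 and 35.5 in WT Tnpo3, 8.18, 6.53, 6.98 and 9.04 in P635L Ctr and 16.1, 17.6, 15.7 and 12.1 in P635L Tnpo3. It fell in P635L Ctr (log2 fold change -1.92 ± 0.20 (SE), adjusted p = 3.14e-06) and rose with Tnpo3 in P635L (log2 fold change 1.00 ± 0.19 (SE), adjusted p = 0.00726). These 2 contrasts share the P635L Ctr libraries.

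Prkag2, the regulatory subunit of AMP-activated protein kinase whose human mutations cause glycogen storage in the heart, moved the other way. It was at 20.6, 21.7, 20.3 and 20.6 CPM in WT Ctr, 24.2, 23.4, 23.1 and 23 in WT Tnpo3, 38.9, 41.3, 34.6 and 42.4 in P635L Ctr and 28.2, 28.4, 29.4 and 33.6 in P635L Tnpo3. It rose in P635L Ctr (log2 fold change 0.92 ± 0.09 (SE), adjusted p = 2.5e-06) and fell with Tnpo3 in P635L hearts (log2 fold change -0.39 ± 0.09 (SE), adjusted p = 0.0215). The phosphorylase kinase subunit Phkb followed the same course (0.51 ± 0.11 and -0.43 ± 0.11 (SE) on the log2 scale, adjusted p 0.00278 and 0.0276). The calls with Tnpo3 in P635L hearts were lost in 7 of 27 alternatives for Prkag2 and 8 for Phkb, mostly those without 1 of the mutant libraries, while the calls of both genes in P635L Ctr against WT Ctr were kept in all 27.

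With Tnpo3 in P635L hearts, 9 further genes rose and 3 fell, against 1.63% and 2.25% of all genes. Besides Phkg1, the genes that rose included Fbp2, muscle fructose bisphosphatase (log2 fold change 0.87 ± 0.22 (SE), adjusted p = 0.0348), Sord, which oxidises sorbitol to fructose (log2 fold change 0.69 ± 0.15 (SE), adjusted p = 0.0143), Bsg, the partner protein of the monocarboxylate transporters (log2 fold change 0.43 ± 0.12 (SE), adjusted p = 0.046), and Mlxipl, the glucose-sensing factor ChREBP (log2 fold change 0.68 ± 0.15 (SE), adjusted p = 0.0165). Tkt, transketolase, and Ldhd rose by 0.44 and 0.59 on the log2 scale, and Pgm5, a phosphoglucomutase relative of muscle adhesion sites, fell (log2 fold change -0.62 ± 0.12 (SE), adjusted p = 0.00636). Of the 10 calls named in this contrast, Phkg1 and Pgm5 alone were kept in all 27 alternatives. The calls were lost in 13 alternatives for Bsg, 11 for Tkt, 10 for Fbp2 and 7 for Ldhd, with an adjusted p of up to 0.119, 0.154, 0.115 and 0.134, among them those without P635L Ctr replicate 1, 2 or 4 or P635L Tnpo3 replicate 1, 2 or 3. Sord lost its call in 2 and Mlxipl in 3. Fbp2 stood at 12.1, 9.84, 12.5 and 11.4 CPM in P635L Ctr and 23.6, 27.8, 22.3 and 10.1 in P635L Tnpo3, where replicate 4 lay within the P635L Ctr range. Against WT Ctr, P635L Ctr had Fbp2 at -1.19 ± 0.22, Sord at -0.66 ± 0.15 and Bsg at -0.37 ± 0.12 (SE), all called, but the Bsg call was lost in 15 of 27 alternatives, with an adjusted p of up to 0.194, among them the replicate block and those without any 1 P635L Ctr library. The Sord call there was lost in 1, without the 3 libraries rich in ENSMUSG00000119584 (adjusted p = 0.0523). These values and those with Tnpo3 in P635L hearts share the P635L Ctr libraries. In WT hearts 0 of the 96 were called between the viruses.

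Other genes of these lists passed the threshold in 1 or more contrasts. In P635L Ctr against WT Ctr, Bpgm, Pygl and Tbc1d1 rose, by 0.43, 0.89 and 0.47 on the log2 scale, and Slc2a12, Slc16a7, Rpia, Gpd1, Gpd2 and Slc25a13 fell, with log2 fold changes of -1.46, -0.67, -0.47, -1.16, -0.48 and -0.54. Of these calls Gpd2, Slc25a13 and Rpia were lost in 8 of 27 alternatives each, Bpgm in 4 and Slc16a7 in 3, all 5 of them without the 3 libraries rich in ENSMUSG00000119584 among others. Slc2a12, encoding the transporter GLUT12, stood at 3.4, 4.7, 4.19 and 4.2 CPM in WT Ctr, 9.02, 6.41, 4.3 and 4.36 in WT Tnpo3, 1.34, 1.27, 1.25 and 2.13 in P635L Ctr and 1.93, 1.95, 2.22 and 2.22 in P635L Tnpo3, and both mutant groups were below every WT library. Between P635L Tnpo3 and WT Tnpo3, 4 of the 96 genes rose, Tkt, Pfkfb4, Mlxipl and Prkag2, and 10 fell, among them Slc2a12 (log2 fold change -1.53 ± 0.24 (SE), adjusted p = 0.00139), Phkg1 (log2 fold change -0.95 ± 0.19 (SE), adjusted p = 0.00912), Slc16a7, Pgm5, Gpd1l, Prkaa2 and the glycogen-targeting phosphatase subunits Ppp1r3a and Ppp1r3d. Of all genes 1.72% were called higher and 2.0% lower in that contrast. Slc2a12, Phkg1, Slc16a7 and Ppp1r3d kept their calls in all 27 alternatives, whereas Gpd1l lost its call in 18, Prkaa2 in 17, Prkag2 in 12, Tkt in 9, Ppp1r3a and Pfkfb4 in 7 each, Mlxipl in 3 and Pgm5 in 2. Without the 3 libraries with high Xist, all of these 8 but Pgm5 lost their calls. Against WT Ctr, P635L Tnpo3 had 2 higher, Pfkfb4 and Prkag2, and 4 lower, among them Phkg1, Slc2a12 and Pgm5, beside 1.49% and 1.58% of all genes. Prkag2 and Pgm5 kept these calls in all 27 alternatives, and Pfkfb4 lost its call in 15, Slc2a12 in 9 and Phkg1 in 1. The interaction called 0 of the 96, against 0.504% of all genes.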

How the data were processed

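RNA of 16 left ventricles was sequenced after poly(A) selection with a directional kit, per the labels' protocols. The authors deposited 1 table of raw read counts for all genes, written by featureCounts per the file headers, and the submitters' processing notes name STAR 2.7.9a, featureCounts 2.0.6, DESeq2 and GRCm39. The annotation and the strand setting of the counting are not given in the sources used here, so reads of overlapping genes on opposite strands cannot be told apart. The authors also deposited rMATS tables with inclusion levels (a fraction), junction counts and p-values, and DESeq2 tables with log2 fold changes and adjusted p-values, all against WT Ctr.

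Counts were fitted here with edgeR 4.0.16 (R 4.3.3): genes passing filterByExpr, TMM scaling, 1 mean per group over all 16 libraries, 12 residual degrees of freedom, a robust quasi-likelihood test and Benjamini-Hochberg adjustment over 18662 genes. Contrasts of groups, and the interaction of virus and genotype, came from this fit. DESeq2 1.42.0, other scalings and filters, and fits without libraries were alternatives. The calling step was tested on simulated data. Values per library, for genes called in any of 6 fits and for the most abundant gene of each step, were named by rule; of the further lists, at most 4 genes per list and contrast with a mean of at least 1 CPM. Shares were tested by exact permutation. Totals of 28493249 to 85922669 counts set the precision. Some genes of the further lists are counted but not reported by name here. The members and lists were chosen with earlier results of these data known. Symbols were matched for all but 4891 of 56953 genes, and Aldoa, whose symbol has more than 1 identifier, was taken as ENSMUSG00000030695. Python 3.11.15 with scipy 1.17.1 and matplotlib 3.10.9 made shares and figures.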

Additional observations from a re-analysis of the deposited data

Results flagged for a closer look

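In groups of 4 mice, 1 library was set far from the other 3 by Dixon's test in 11 of the 212 groups examined, which is about the 1 in 20 that chance gives. Among the 38 genes, Pgam2 in P635L Tnpo3 replicate 4 stood at 1169 CPM against 824 to 858 in the other 3, and Pygb in the same library at 545 against 656 to 675. Pdhb in WT Ctr replicate 4 stood at 534 CPM against 748 to 773, and Pygm in WT Ctr replicate 2 at 1234 against 1077 to 1097. In P635L Ctr, Mpc1 was low in replicate 1 (149.5 CPM against 169.9 to 172) and Phka1 in replicate 4 (34.0 against 40.2 to 41.1).

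Among the further genes, Slc2a12 in P635L Ctr replicate 4 stood at 2.13 CPM, Ppp1r3a in WT Ctr replicate 4 at 48.4 and Sord in WT Ctr replicate 2 at 198, each above the rest of its group. Pdp2 in WT Tnpo3 replicate 3 stood at 19.2 CPM and Ldhd in WT Tnpo3 replicate 4 at 29.8, each below the rest. WT Ctr replicates 2 and 4 and WT Tnpo3 replicate 4, which hold 5 of the 11, are the libraries rich in ENSMUSG00000119584; its part in these values was not tested.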

How the results depend on the processing

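No called value changed its sign. Of genes not called, other scalings or the table without ENSMUSG00000119584 changed the sign of Mpc1 and Hk1 in P635L Ctr against WT Ctr, of Aldoa, Pygb, Tpi1 and Pygm in P635L Tnpo3 against P635L Ctr, of Phka1 in P635L Tnpo3 against WT Ctr, of Mpc2, Pdk2, Pgam1 and Pygm between the WT groups and of Pdhb and Pygm in the interaction. Leaving out 1 library at a time gave 10 to 14 genes of the list (1814 to 3141 of all genes) in P635L Ctr against WT Ctr, 0 to 2 (282 to 1022) in P635L Tnpo3 against P635L Ctr, 0 to 3 (282 to 736) against WT Ctr, 0 (1 to 3) between the WT groups, 1 to 6 (280.0 to 1220.0) in P635L Tnpo3 against WT Tnpo3, and 0 to 1 (52 to 221) for the interaction. At an adjusted p below 0.01, all genes called in these 6 fits were 1354, 203, 209, 1, 215 and 23.

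In P635L Tnpo3 against P635L Ctr, the list had 1 call with upper-quartile scaling, 1 without the filter, 1 with a stricter filter, 11 in the 2 groups alone (2846 genes), 6 without the 3 libraries rich in ENSMUSG00000119584 (1482), 4 without the 3 with high Xist (1282), 2 with Xist as a covariate and 4 with DESeq2 (1370.0). In P635L Tnpo3 against WT Ctr it had 0 at 0.01, 2 with upper-quartile scaling, 2 with the stricter filter, 0 in the 2 groups, 3 without high Xist, 2 with the covariate and 4 with DESeq2 (1113), and 319 genes in all without the rich libraries. Between the WT groups, genes called were 0 without the rich libraries, 0 without high Xist and 3 with DESeq2.

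In P635L Tnpo3 against WT Tnpo3 it had 2 with the stricter filter, 11 without the rich libraries (1887), 2 without high Xist (386), 2 without ENSMUSG00000119584 in the table, 3 with DESeq2 (1426), and 462 genes in the 2 groups and 376 with the covariate. For the interaction it had 2 without the rich libraries (322) and 1 with DESeq2 (402), and 146 genes without the filter and 54 without high Xist. Events in the list at a difference of at least 0.05 were 3 in P635L Ctr and 4 in P635L Tnpo3, and at 0.2 there were 0, 0 and 0 in the 3 tables.

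The labels give only replicate numbers, and in no pair of groups did all 4 same-numbered libraries deviate together with a correlation over 0.1. WT Ctr and WT Tnpo3 came nearest (0.096, 0.108, 0.276 and 0.552), with 5 of 8 libraries correlating best with their own number, and the other pairs lay between -0.257 and 0.157. With the replicate block the list had 12, 1, 0, 0, 1 and 0 calls in the 6 fits (2487, 677, 490.0, 1, 547 and 113 genes). Scaling moved the median of all genes by at most 0.05 on the log2 scale. Depth limits Aldoc, with 165 counts in all, and junction reads limit the Pfkfb1 and Pfkfb2 events.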
